A study of Sus scrofa with 6 samples.

Results

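Genes of mitosis and of the spindle checkpoint were followed in cultured immature pig Sertoli cells, which form the epithelium of the seminiferous tubule and support developing germ cells. The 35 listed genes code for mitotic kinases, cyclins, kinetochore and checkpoint proteins and proteins of cytokinesis, with kinesin motors left out apart from CENPE. They were found by matching the Ensembl identifiers of the deposited table to gene symbols. Of the 35, 30 had a row among the 20731 genes of the table, and 29 reached a mean of 1 FPKM over the libraries and were tested, among 10950 tested genes. FPKM is a gene's fragment number divided by its length and scaled to the size of the library. CCNA2, CDC25C, AURKA, PTTG1 and MKI67 were not matched to a row and are not analysed here. PRC1, which bundles microtubules of the central spindle, had a row but rested on 2 to 18 reads per library (0.012 to 0.11 FPKM) and was not tested.

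The study holds 6 RNA libraries, 3 labelled Control (Control-1 to Control-3) and 3 labelled MT (MT-1 to MT-3), all from immature Sertoli cells labelled as a cell line. The MT cells had been kept for 36 h with 10 nM melatonin, a hormone of the pineal gland. What the Control cells received, and for how long they were kept, is not stated, so a vehicle or an equal culture time is not assumed here. The labels do not say whether libraries of a group came from separate cultures or animals, and if they did not, the p-values reflect technical spread alone.

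The total by which FPKM was scaled, as recovered from the smallest FPKM steps, was 19579279 to 21500665 reads per library. Of this total 99.57% to 99.59% lay in the genes of the table, so the number of reads sequenced cannot be read from it. Every tested mitosis gene rested on at least 173 reads in each library. Control-3 stood apart from the rest. On the leading principal component of all tested genes, which held 68.2% of the variance, it lay at 40.4, Control-1 and Control-2 at -22.0 and -21.7, MT-2 at -10.4, and MT-3 and MT-1 at 6.2 and 7.52. The 13 mitochondrial mRNAs took 2.73% of gene reads in Control-3 and 4.37% to 5.58% in the other libraries. Of 13 Sertoli cell markers 10 had a row, with a summed level of 5573 to 6611 FPKM in Control and 6584 to 6951 in MT, most of it from CLU and VIM. AMH (11.3 to 15.6 FPKM) and WT1 (10.0 to 12.8) were detected in every library, and SOX9 was low (1.61 to 2.40). DHH, INHA and KITLG were under 1 FPKM in all 6, and GATA4, FSHR and CLDN11 were not matched to a row. Of the germ cell markers with a row, DDX4, STRA8 and SYCP3 were under 1 FPKM in all libraries, and the 4 genes summed to 1.21 to 1.71 FPKM in Control and 1.84 to 1.92 in MT. The sums in Control and MT were 3.85 to 4.35 and 3.74 to 4.87 FPKM for 3 Leydig markers, 174.5 to 279.9 and 178.8 to 210.4 for 6 myoid markers, led by TAGLN with ACTA2 and MYH11 under 1, 9.76 to 12.6 and 11.9 to 13.7 for 4 leukocyte markers, and 0.16 to 0.31 and 0.15 to 0.32 for 2 endothelial markers. The part of other cells in the results that follow was not tested.

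Entry into mitosis is driven by the kinase CDK1 bound to a B-type cyclin, which CDC25 phosphatases switch on and Polo and Aurora kinases reinforce. Chromosomes then attach to the spindle through kinetochores built on CENPA chromatin, and the spindle checkpoint holds back the anaphase-promoting complex until every chromosome is attached. Most of these genes are transcribed mainly in G2 and M phase, so their RNA in a bulk culture depends on how many cells are dividing. In bulk samples, fewer cells in mitosis and less of the RNA per cell cannot be told apart. Immature Sertoli cells divide, and they stop dividing as they mature.

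The comparison of MT with Control asked whether these genes differ after melatonin. With all 6 libraries, 28 of the 29 tested mitosis genes were lower in MT by the mean of log2(FPKM + 1), with a median log2 difference of -0.26, against 44% of all tested genes that were lower and a median over all of 0.02. None of the 29 passed an adjusted p of 0.05 in limma, and 0 of the 10950 tested genes (0%) did; limma voom on recovered reads passed 0 as well, with 495 genes under an unadjusted p of 0.05. The smallest adjusted p among the 29 was 0.52. An unadjusted p under 0.05 was reached by 6 of them, all lower in MT, against 2.39% of all tested genes on that side and 4.72% (517 genes) on either. In all 29 the highest of the 6 values was in a Control library, which held for 70.5% of all tested genes. Which Control library it was differed, with Control-3 the highest in 7 genes and Control-1 or Control-2 in 22. Control-3 was also the lowest of the 6 libraries in 15 genes. Without Control-3 the median was -0.52 (-0.0037 over all tested genes), with 28 of the 29 below 0 (50.6% of all tested genes). By limma 18 of the 29 then fell and 0 rose, against 6.62% of all tested genes that fell and 4.28% that rose. Those 18 calls rest on 2 Control libraries and 3 MT libraries. Control-3 was left out with its values known, and leaving it out narrowed the spread within Control. The 18 calls are a description beside the main fit over 6 libraries, in which none of the 29 passed. The median was -0.12 without Control-1 and -0.10 without Control-2, with 25 and 26 of the 29 lower and 0 passing in each. For these fits the share lower and the median over all tested genes were not worked out, so the counts have no background beside them.

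**Figure D1:**
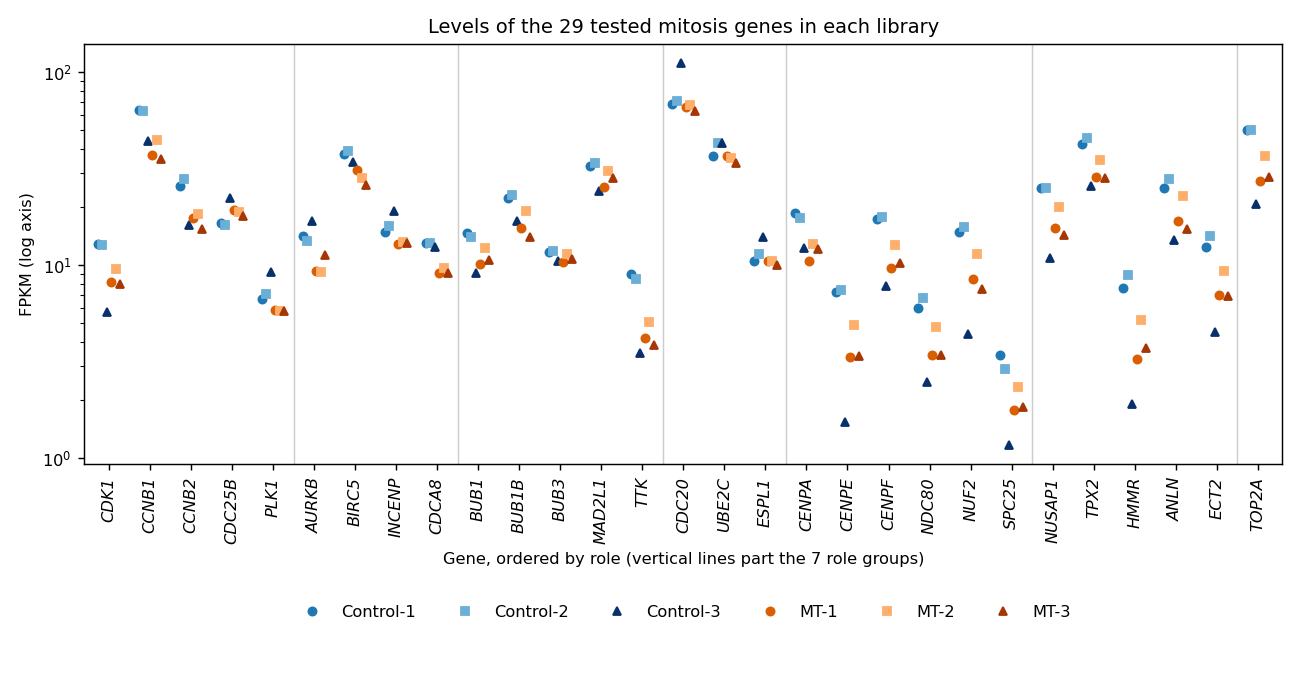
FPKM on a log axis of the 29 tested mitosis genes in each of the 6 libraries, ordered by role, with circles, squares and triangles for replicates 1, 2 and 3, Control in blue and MT in orange. Control-1 and Control-2 lie close together and above the MT libraries in all but CDC25B, and Control-3 is the lowest point in 15 genes and the highest in 7.

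Among the genes of mitotic entry, CDK1, CCNB1 and CCNB2 fell without Control-3, while PLK1 and CDC25B did not pass. CDK1 (ENSSSCG00000010214, chromosome 14, 64233945 to 64255290), the catalytic subunit, stood at 12.9, 12.6 and 5.68 FPKM in Control-1 to Control-3 and at 8.19, 9.56 and 7.99 in MT-1 to MT-3. Control-3 was below every MT library and the other Control libraries were above them, so the groups overlapped. Over 6 libraries its log2 difference was -0.18 (SE 0.29), and without Control-3 it was -0.52 (SE 0.09, adjusted p 0.029).

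CCNB1 (ENSSSCG00000029326, chromosome 16, 47338239 to 47348385) codes for cyclin B1, the main partner of CDK1 in mitosis. It stood at 64.1, 63.2 and 44.2 FPKM in the Control libraries against 37.4, 44.5 and 35.7 in the MT libraries. MT-2 was just above Control-3, and the other MT libraries were below every Control library. The log2 difference was -0.52 (SE 0.17, adjusted p 0.90) over 6 libraries and -0.69 (SE 0.10, adjusted p 0.024) without Control-3. Cyclin B2, from CCNB2, which is found mainly at the Golgi, stood at 23.3 ± 6.26 and 17.1 ± 1.54 FPKM (mean ± SD, n = 3 each) and differed by -0.62 without Control-3 (adjusted p 0.025).

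PLK1 (ENSSSCG00000026748, chromosome 3, 22537814 to 22550901), the Polo kinase that acts from mitotic entry to cytokinesis, stood at 6.66, 7.04 and 9.23 FPKM in the Control libraries against 5.81, 5.78 and 5.77 in the MT libraries. All 3 MT values were below all 3 Control values, and Control-3 was the highest. The log2 difference was -0.34 (SE 0.14) over 6 libraries and -0.21 (SE 0.07, adjusted p 0.092) without Control-3. CDC25B (ENSSSCG00000007151, chromosome 17, 31910824 to 31929418), the phosphatase that starts CDK1 activation, was the exception among the 29 in direction. It stood at 16.5, 16.1 and 22.2 FPKM in the Control libraries against 19.2, 18.9 and 18.0 in the MT libraries, so the MT values lay between Control-3 and the other Control libraries. Its log2 difference was 0.05 (SE 0.14) over 6 libraries and 0.19 (SE 0.07, adjusted p 0.10) without Control-3.

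The chromosomal passenger complex, which corrects faulty attachments at centromeres and later marks the site of cleavage, was lower in MT in all 4 of its genes. In each of them the 3 MT values lay below the 3 Control values, which held for 4.99% of all tested genes (the opposite order held for 6.24%, and for 0 of the 29), and each had an unadjusted p under 0.05 over 6 libraries. AURKB (ENSSSCG00000028924, chromosome 12, 53410833 to 53426165), the kinase of the complex, stood at 14.2, 13.4 and 16.9 FPKM in the Control libraries against 9.34, 9.19 and 11.2 in the MT libraries. CDCA8 (borealin; ENSSSCG00000032909, chromosome 6, 93750694 to 93764845), which brings the complex to chromatin, stood at 13.0, 12.9 and 12.4 FPKM in the Control libraries against 9.14, 9.66 and 9.06 in the MT libraries. Control-3 was the highest library for AURKB and lay within 0.06 log2 units of the other Control libraries for CDCA8, so these 2 genes did not share the low value that CDK1 had there. The log2 differences over 6 libraries were -0.53 for AURKB (SE 0.13, adjusted p 0.66) and -0.42 for CDCA8 (SE 0.10, adjusted p 0.52). Without Control-3 both fell, AURKB by 0.44 (adjusted p 0.042) and CDCA8 by 0.44 (adjusted p 0.025). BIRC5 (survivin), which docks the complex on centromeres, averaged 37.0 ± 2.38 FPKM in Control and 28.5 ± 2.40 in MT (SD, n = 3 each) and fell without Control-3 (-0.42, adjusted p 0.036). INCENP, the scaffold that activates the kinase, stood at 16.6 ± 2.22 and 13.0 ± 0.20 FPKM (n = 3 each) and had an adjusted p of 0.069 without Control-3.

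Of the 5 spindle checkpoint genes, which delay anaphase, TTK fell without Control-3 and the other 4 did not pass. TTK (MPS1; ENSSSCG00000004466, chromosome 1, 86076576 to 86125334), the kinase that starts checkpoint signalling, stood at 8.97, 8.46 and 3.47 FPKM in the Control libraries against 4.17, 5.03 and 3.86 in the MT libraries. Control-3 was the lowest library, and the groups overlapped through it. Its log2 difference was -0.49 (SE 0.31) over 6 libraries and -0.87 (SE 0.11, adjusted p 0.018) without Control-3. BUB1B (BubR1; ENSSSCG00000004782, chromosome 1, 131093026 to 131143840), part of the complex that inhibits CDC20, stood at 22.2, 23.1 and 17.0 FPKM in the Control libraries against 15.6, 19.0 and 14.0 in the MT libraries, with Control-3 between MT-1 and MT-2. It differed by -0.34 (SE 0.17) over 6 libraries and by -0.47 (adjusted p 0.052) without Control-3. BUB1, a kinase that recruits other checkpoint proteins, had -0.36 (adjusted p 0.051) without Control-3, and MAD2L1, which binds CDC20, had -0.24 (adjusted p 0.11). BUB3, the partner of both BUB kinases, varied least, with 11.3 ± 0.74 and 10.8 ± 0.49 FPKM (n = 3 each) and a log2 difference of -0.06 (SE 0.11) over 6 libraries.

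The genes that trigger anaphase had their highest values in Control-3, as did 32.4% of all tested genes. Without Control-3, 0 of the 3 tested passed (6.62% of all tested genes fell). CDC20 (ENSSSCG00000003949, chromosome 6, 167886266 to 167890587), which activates the anaphase-promoting complex and is the target of the checkpoint, stood at 68.3, 71.0 and 111.8 FPKM in the Control libraries against 66.02, 67.4 and 63.3 in the MT libraries. Control-3 was 1.61 times the mean of Control-1 and Control-2, which were close to the MT libraries. Its log2 difference of -0.31 (SE 0.20) over 6 libraries was -0.08 (SE 0.06, adjusted p 0.36) without Control-3. UBE2C (ENSSSCG00000007423, chromosome 17, 48018403 to 48021542), the ubiquitin-conjugating enzyme of the complex, stood at 37.0, 43.1 and 43.1 FPKM in the Control libraries against 37.0, 36.1 and 33.8 in the MT libraries, and Control-1 and MT-1 were level at this precision. It differed by -0.20 (SE 0.11) and, without Control-3, by -0.16 (adjusted p 0.22). ESPL1 (separase), which cuts cohesin, stood at 11.99 ± 1.81 and 10.4 ± 0.27 FPKM (n = 3 each), with -0.08 (adjusted p 0.47) without Control-3. In all 3 genes the MT values lay just below all Control values, an order found in 4.99% of all tested genes. With median-of-ratios scaling between libraries this order no longer held for any of the 3.

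All 6 centromere and outer kinetochore genes fell without Control-3, against 6.62% of all tested genes. In 5 of these 6 genes Control-3 was the lowest of the 6 libraries, against 41.7% of all tested genes. CENPA (ENSSSCG00000038543, chromosome 3, 112263912 to 112272638), the histone H3 variant that marks the centromere, was the sixth. It stood at 18.6, 17.5 and 12.3 FPKM in the Control libraries against 10.5, 12.9 and 12.1 in the MT libraries, so Control-3 lay among the MT libraries. It differed by -0.40 (SE 0.17) over 6 libraries and by -0.57 (SE 0.10, adjusted p 0.028) without Control-3. CENPF (ENSSSCG00000015581, chromosome 9, 128948386 to 129012241), a large coiled-coil protein of the outer kinetochore, stood at 17.3, 17.8 and 7.77 FPKM in the Control libraries against 9.70, 12.7 and 10.2 in the MT libraries. It differed by -0.29 (SE 0.30) and, without Control-3, by -0.65 (adjusted p 0.030). CENPE, the kinesin that moves chromosomes to the spindle equator, had the widest spread of the 29 genes, with 7.27, 7.45 and 1.54 FPKM in the Control libraries against 3.31, 4.88 and 3.38 in the MT libraries. Its mean in Control-1 and Control-2 was 4.79 times the value in Control-3. NDC80, NUF2 and SPC25, subunits of the complex that grips microtubule ends, had log2 differences of -0.61, -0.70 and -0.48 without Control-3 (adjusted p 0.043, 0.040 and 0.049) and of -0.25, -0.17 and -0.17 over 6 libraries.

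Of the 5 tested genes of spindle assembly and cytokinesis, 4 fell without Control-3 (6.62% of all tested genes). Control-3 was the lowest library in all 5 (41.7% of all tested genes). TPX2 (ENSSSCG00000007235, chromosome 17, 35431271 to 35484814), which nucleates spindle microtubules and activates Aurora A, stood at 42.3, 45.8 and 25.6 FPKM in the Control libraries against 28.5, 34.97 and 28.3 in the MT libraries. HMMR (ENSSSCG00000017022, chromosome 16, 60290684 to 60332411), a hyaluronan receptor that also binds spindle microtubules, stood at 7.58, 8.82 and 1.89 FPKM in the Control libraries against 3.24, 5.15 and 3.69 in the MT libraries. The groups overlapped in both genes through Control-3 alone. The log2 differences were -0.26 (SE 0.23) for TPX2 and -0.33 (SE 0.46) for HMMR over 6 libraries, and -0.52 and -0.89 without Control-3 (adjusted p 0.037 and 0.032). ECT2, which switches on RhoA at the cleavage site, and NUSAP1, which bundles spindle microtubules, had -0.71 and -0.58 without Control-3 (adjusted p 0.033 and 0.043). ANLN, an actin binder of the contractile ring, stood at 25.0, 27.9 and 13.5 FPKM in the Control libraries against 16.8, 22.9 and 15.4 in the MT libraries. It had -0.21 (SE 0.28) over 6 libraries and -0.52 (adjusted p 0.067) without Control-3. TOP2A (ENSSSCG00000017473, chromosome 12, 22001300 to 22028452), the topoisomerase that untangles sister chromatids, stood at 50.2, 50.4 and 20.8 FPKM in the Control libraries against 27.2, 36.7 and 28.7 in the MT libraries, and fell by 0.70 without Control-3 (adjusted p 0.031) after -0.29 (SE 0.34) over 6 libraries. The difference between role groups in these counts was not tested, and the counts varied with the place of Control-3, as given below.

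**Figure D2:**
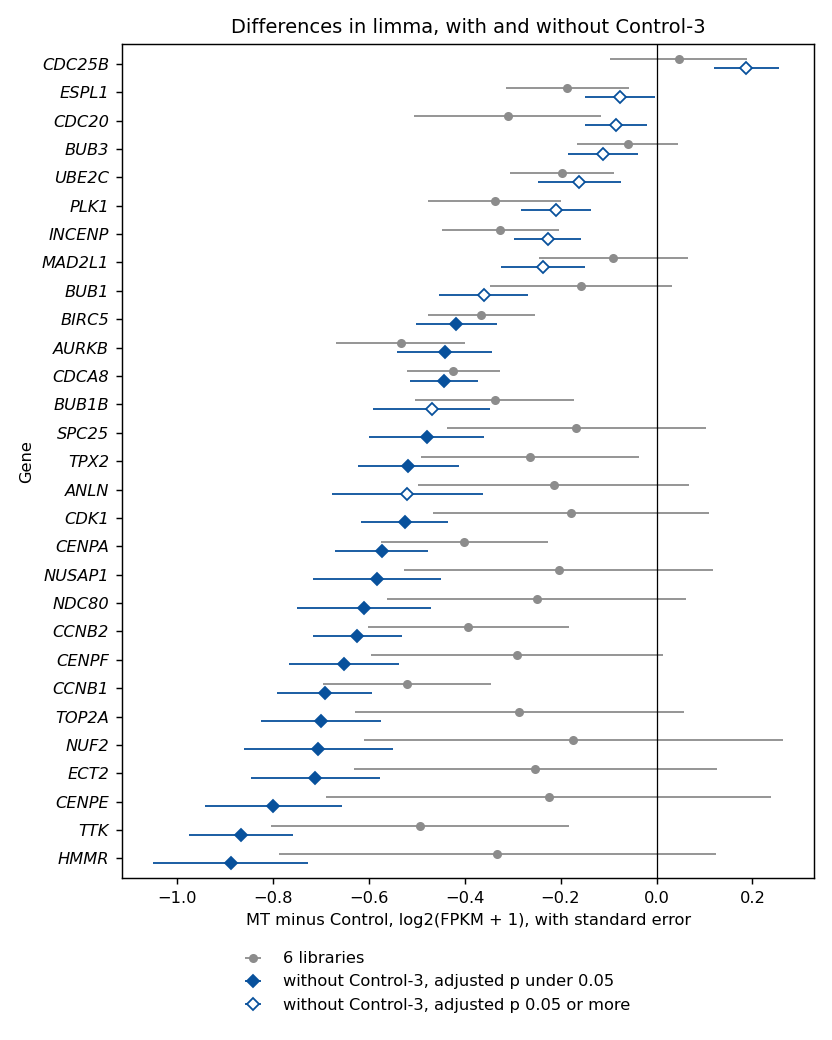
Log2 difference of MT minus Control on log2(FPKM + 1), with standard errors from limma, for the 29 tested genes over 6 libraries (grey) and without Control-3 (blue, filled where the adjusted p is under 0.05). Filled points number 18, all below 0, and in 15 of the 29 genes the grey standard error exceeds the size of the difference.

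Per length, CDC20 had the highest mean level of the 29 genes over the 6 libraries (74.6 FPKM), ahead of CCNB1 (48.2), UBE2C (38.3) and TOP2A (35.7), and SPC25 the lowest (2.23). In Control-1 and Control-2 the order of the leading genes was CDC20 (69.6), CCNB1 (63.6) and TOP2A (50.3). Genes of one complex did not keep equal levels. AURKB and INCENP stood close to each other, with an FPKM ratio of 0.84 to 0.96 in Control and 0.70 to 0.87 in MT. BIRC5 was 2.76 to 3.00 times CDCA8 in Control and 2.89 to 3.39 times in MT. NDC80 had 0.40 to 0.56 of the level of NUF2 in Control and 0.40 to 0.45 in MT.

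Ratios between genes within a library, chosen after their values were seen, do not depend on the scaling of that library. The ratio of CCNB1 to CDK1 was 4.98, 5.0 and 7.78 in Control and 4.57, 4.65 and 4.46 in MT, so the MT values were below all Control values and Control-3 was the highest. The ratio of CDC20 to MAD2L1, an activator of anaphase to its inhibitor, was 2.10, 2.09 and 4.61 in Control and 2.58, 2.20 and 2.25 in MT. Here the MT libraries lay above Control-1 and Control-2, and Control-3 was far above all. CDC20 to BUB1B also had MT between Control-3 and the other Control libraries, with 3.07, 3.08 and 6.58 in Control and 4.23, 3.55 and 4.52 in MT. These ratios were not tested.

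Control-3 leaned low against the other Control libraries, but not in every mitosis gene. Its median deviation from the mean of Control-1 and Control-2 was -0.61 on log2(FPKM + 1), against -0.02 over all tested genes. Control-3 was the lowest of 6 in 15 of 29 (41.7% of all tested genes), the highest in 7 (32.4% of all tested genes) and in between in 7. The 15 lowest were CDK1, BUB1, MAD2L1, TTK, CENPE, CENPF, NDC80, NUF2, SPC25, NUSAP1, TPX2, HMMR, ANLN, ECT2 and TOP2A. They lay 0.44 to 1.72 below the mean of Control-1 and Control-2 on log2(FPKM + 1). The 7 highest were CDC25B, PLK1, AURKB, INCENP, CDC20, UBE2C and ESPL1, at 0.11 to 0.68 above that mean. CCNB1, CCNB2, BIRC5, CDCA8, BUB1B, BUB3 and CENPA lay in between, all below Control-1 and Control-2. In the fit without Control-3, 12 of the 15 lowest fell, 5 of the 7 in between and 1 of the 7 highest (AURKB). The MT libraries were below both Control-1 and Control-2 in 28 of the 29, against 30.3% of all tested genes.

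**Figure D3:**
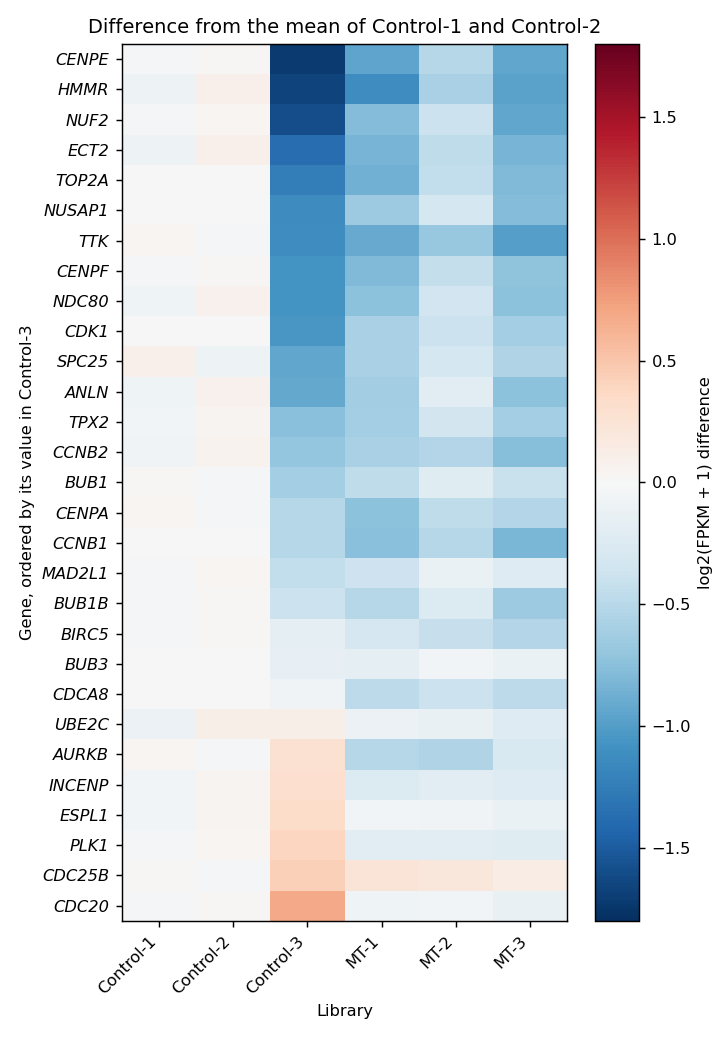
Difference of each library from the mean of Control-1 and Control-2 on log2(FPKM + 1), for the 29 tested genes ordered by their value in Control-3 (blue lower, red higher). Control-3 runs from -1.72 for CENPE to 0.68 for CDC20, while the MT columns are blue in every gene but CDC25B.

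The lengths of the gene models overlapped between these sets. The median length was 5247 bases for the 15 genes lowest in Control-3 (1876 to 10078) and 4775 bases for the 7 highest (835 to 7708). Across the 29 genes, length and the deviation of Control-3 had Spearman's rho of -0.22 (-0.20 across all tested genes). For mean level and that deviation rho was 0.41 (0.20 across all tested genes). Both are given as a description since genes are not independent replicates.

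The MT libraries differed among themselves along the same genes. MT-2 had the highest of the 3 MT values in 23 of the 29, against 38.8% of all tested genes, and the largest gaps were in ANLN (0.48 above the mean of MT-1 and MT-3), NUF2 (0.47) and HMMR (0.46). Across the 29 genes the deviation of MT-2 from MT-1 and MT-3 and that of Control-3 from Control-1 and Control-2 had Pearson's r of -0.89 and Spearman's rho of -0.86, and across all tested genes -0.63 and -0.69. These deviations use different libraries, and the points share the depth of those libraries, so the values are a description with no test. The median deviation of the 29 genes from their own mean over 6 libraries was 0.34 in Control-1, 0.33 in Control-2, 0.05 in MT-2, -0.19 in MT-1, -0.23 in MT-3 and -0.27 in Control-3. The principal component given above sets the libraries in nearly that order, with MT-1 and MT-3 exchanged. Its part in the difference between MT and Control was not tested.

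**Figure D4:**
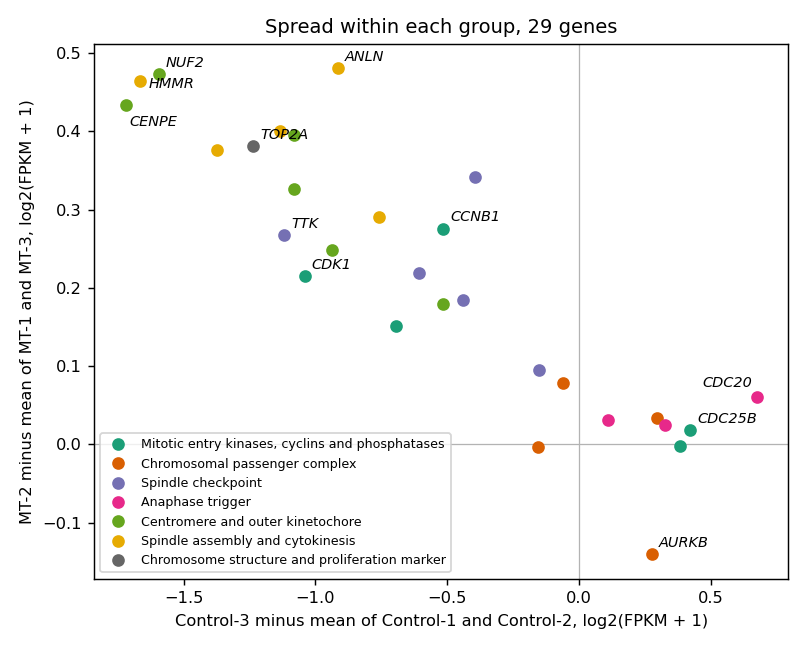
Spread within each group for the 29 tested genes, coloured by role. The x axis is Control-3 minus the mean of Control-1 and Control-2 and the y axis MT-2 minus the mean of MT-1 and MT-3, both on log2(FPKM + 1). CENPE, HMMR and NUF2 lie at the upper left, at 0.43 to 0.47 on the y axis, below ANLN (0.48), and AURKB is lowest at -0.14.

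Other genes of the cell cycle, taken as lists chosen by function, gave counts without Control-3 that are read against the same 6.62% of all tested genes that fell, and 0 genes of these lists rose. None passed over 6 libraries. Of other centromere and kinetochore genes 11 of 24 fell. The 3 with the smallest p over 6 libraries were MIS18A, which helps load CENPA and stood at 5.04, 5.14 and 5.64 FPKM in the Control libraries against 3.47, 4.02 and 3.31 in the MT libraries (-0.41 without Control-3, adjusted p 0.043), and CENPM (-0.28, adjusted p 0.058) and ZWINT (-0.40, adjusted p 0.083), which did not pass. Of condensin and cohesin genes 8 of 18 fell, among them NCAPG2, a condensin subunit, at 7.31, 7.20 and 6.11 FPKM in the Control libraries against 4.49, 4.97 and 4.96 in the MT libraries (-0.51, adjusted p 0.025). NCAPD2 (-0.23, adjusted p 0.092) and NCAPH (-0.39, adjusted p 0.055), also condensin subunits, did not pass.

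Of other spindle and centrosome genes 6 of 17 fell, among them CIT, the citron kinase of late cytokinesis, at 7.80, 7.83 and 7.70 FPKM in the Control libraries against 5.97, 6.38 and 5.86 in the MT libraries (-0.32, adjusted p 0.045), and HAUS8 (-0.52, adjusted p 0.040), while FAM83D did not pass (adjusted p 0.061). Control-3 was level with the other Control libraries for CIT, which was named for its small p, and the groups did not overlap. Every MT value lay below every Control value in 2 of the 17. Of the genes that brake or help mitotic entry 4 of 9 fell, among them CDC25A, a phosphatase of cyclin-dependent kinases (-0.34, adjusted p 0.047), GTSE1 (-0.36, adjusted p 0.040) and CCNF, cyclin F (-0.37, adjusted p 0.037). These 3 were named for their small p. They were the 3 of the 9 with every MT value below every Control value, which held for 4.99% of all tested genes.

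Subunits and regulators of the anaphase-promoting complex had the smallest share, with 2 of 15 that fell. These were the inhibitor FBXO5 (EMI1; -0.61, adjusted p 0.030) and the subunit CDC23 (-0.37, adjusted p 0.044), while CDC26 was at 16.3 ± 1.05 and 18.4 ± 0.58 FPKM (n = 3 each) and did not pass. Of the transcription regulators of cell cycle genes 3 of 18 fell, among them E2F7 and E2F8, repressors of E2F targets (both -0.50, adjusted p 0.026 and 0.043). FOXM1, an activator of G2 and M phase genes, stood at 4.12, 3.83 and 4.60 FPKM in the Control libraries against 3.40, 3.07 and 2.61 in the MT libraries. Its MT values were all below its Control values, as in 6 of the 18 (4.99% of all tested genes), but FOXM1 did not pass (-0.31, adjusted p 0.091). Of S phase genes 9 of 26 fell, and the list's median without Control-3 was -0.23. GINS1 and GINS3, of the replicative helicase, and ORC1, of the origin recognition complex, were among them (-0.49, -0.34 and -0.36, adjusted p 0.031, 0.042 and 0.037). In this list Control-3 was the highest library in 14 of 26 genes and the lowest in 5 (32.4% and 41.7% of all tested genes). Over 6 libraries all 26 S phase genes were lower in MT, with a median of -0.27. The mitosis genes had 28 of 29 and -0.26. Every MT value lay below every Control value in 12 of the 26, against 8 of the 29 and 4.99% of all tested genes. In limma 8 of the 26 and 6 of the 29 had an unadjusted p under 0.05. The fall in MT was thus not particular to the mitosis genes. Of the inhibitors of cyclin-dependent kinases and growth arrest genes 2 of 9 fell, CDKN2C (-0.30, adjusted p 0.037) and CDKN3 (-0.65, adjusted p 0.032), a phosphatase of CDK1, and CDKN1A, which codes for p21, stood at 185.4 ± 7.97 and 193.2 ± 6.87 FPKM (n = 3 each) and did not pass (0.09, adjusted p 0.38).

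**Figure D5:**
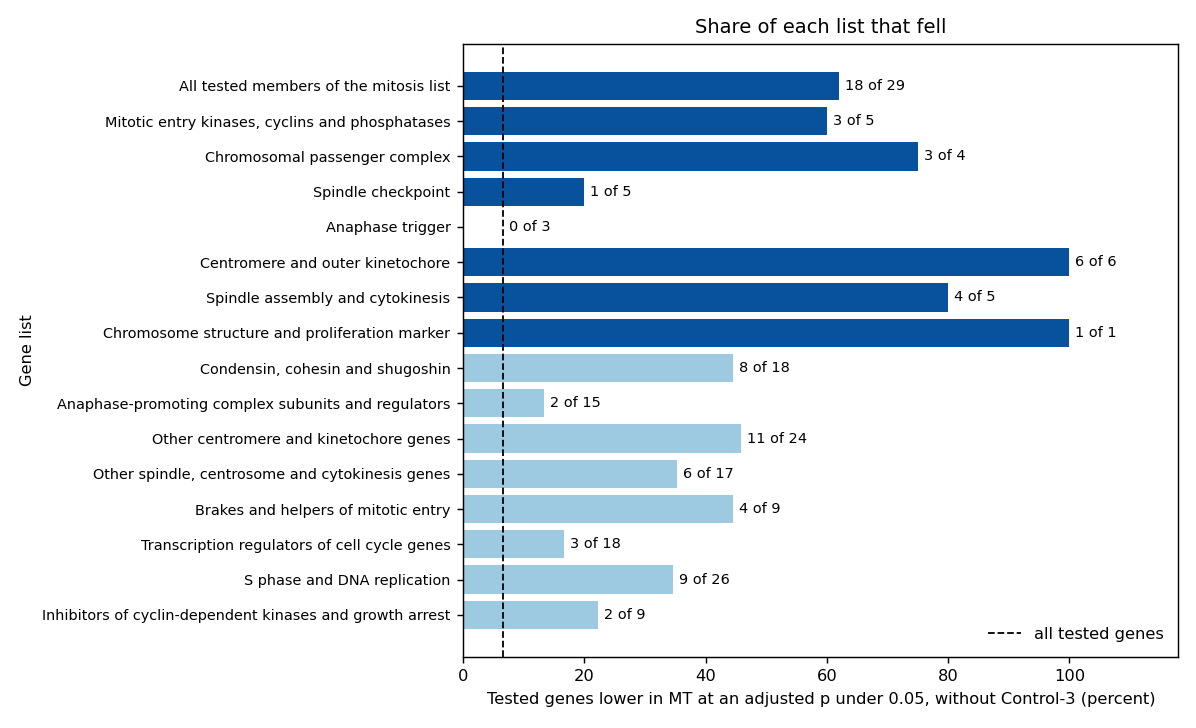
Percent of the tested genes of each list that were lower in MT at an adjusted p under 0.05 in limma without Control-3, with the counts beside the bars, for the mitosis genes and their role groups (dark) and for the other cell cycle lists (light). The dashed line is the 6.62% of all tested genes that fell; the bar for all tested mitosis genes is at 62.1% and that of the anaphase genes at 0%.

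Some of these genes share their place with others. In RefSeq, PLK1 overlaps ERN2, CDCA8 overlaps EPHA10, SPC25 overlaps NOSTRIN, NUSAP1 overlaps NDUFAF1 and OIP5, HMMR overlaps NUDCD2, AURKB overlaps tRNA genes, and CDK1, CENPF and NDC80 each overlap a locus without a symbol name. The strand setting of the counting is not given in the sources used here, so reads of these genes and of their neighbours may not have been kept apart.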

How the data were processed

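Total RNA of 6 libraries, 3 Control and 3 MT, was sequenced, and groups were taken from the sample titles. The authors deposited FPKM, 1 column for each library, none pooled. Per the submitters' processing notes, bcl2fastq, HISAT2, Subread and featureCounts were used on Sscrofa11.1; versions, annotation release, strand setting and filters are not given. Symbols were matched by Ensembl identifier for 13173 of 20731 genes (9483 of the 10950 tested). Coordinates are those of the symbol in RefSeq's Sscrofa11.1.

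Genes averaging 1 FPKM or more entered limma 3.58.1 (R 4.3.3), which fitted MT minus Control to log2(FPKM + 1) (variance trend, group as the only term, two-sided, Benjamini-Hochberg adjustment over all 10950 tested genes, threshold 0.05). The pseudocount shrinks differences of low genes. The fit without Control-3 used the same genes and was read with the values of that library known. Read numbers were worked out from the steps of low values, and 100% of tested genes gave whole reads within 0.01. Chi-square over degrees of freedom between libraries of a group was 6.35 to 149.1, above sampling noise, so none was taken as a copy. The model was also run on simulated data, with changes larger than those of the mitosis genes. Its power at the differences seen here was not tested.

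The members and lists were chosen with earlier results of these data known, so lists are described by counts and medians only. Values in every library are given for 2 genes per role group, those of smallest p, for 9 genes set by name, of which MKI67 had no row, for any gene of opposite direction, and, outside this rule, for CENPE and HMMR, which were picked for their spread. Up to 3 genes of each other list, those with the smallest p, are named. A planned look at promoter motifs was not made.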

Additional observations from a re-analysis of the deposited data

How the results depend on the processing

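Over 6 libraries, 0 tested genes and 0 mitosis genes passed under other pseudocounts (0.1 and 0.25), no filter or a mean of at least 5 FPKM, median-of-ratios scaling, quantile normalisation, no variance trend, limma voom on the recovered reads and the replicate block, and the median of the mitosis genes was -0.29 to -0.26. Under these 9 settings all 258 log2 differences of the tested mitosis genes kept their direction. Deviations of same-numbered libraries correlated at -0.44, 0.63 and 0.34 for numbers 1, 2 and 3, so number 1 did not deviate together and the numbers were not taken as pairs, and with the replicate block 0 genes passed, with 499 under an unadjusted p of 0.05 against 517, and the median was -0.26; Control-1 and Control-3 each correlated best with another number. With a library left out, 0 to 1194 genes and 0 to 18 mitosis genes passed, the calls coming without Control-3, and the median was -0.52 to -0.10. Leaving out Control-1 or Control-2 turned the sign for NUF2 (range over the left-out libraries -0.70 to 0.11), CENPE (-0.80 to 0.070), ECT2 (-0.71 to 0.023), SPC25 (-0.48 to 0.036), CDK1 (-0.52 to 0.00195) and CDC25B (-0.032 to 0.19).

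Chosen after seeing the data, 5 settings without Control-3 gave 15 to 21 mitosis genes that fell, and 15 passed in all 6 fits; AURKB, NUSAP1 and SPC25 were lost with no variance trend, and ANLN, BUB1 and BUB1B passed by limma voom. Over all genes, limma voom passed 2367 (1459 lower, 13.3% of tested genes) where limma on log2(FPKM + 1) passed 1194. The share of calls that were lower was 60.7%, and 51.6% with median-of-ratios scaling and 50.3% with quantile normalisation. The 3 MT values lay below the 3 Control values in 8 of the 29 mitosis genes, against 4.99% of all tested genes. The count was 6 with median-of-ratios scaling (CDC20, ESPL1 and UBE2C lost, CCNB1 gained) and 7 with quantile normalisation (ESPL1 lost). The share over all tested genes was not worked out under these scalings.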
